A study of Mus musculus with 12 samples.

Results

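The 6 genes described here encode transcription factors known from the endoderm: the forkhead factors *Foxa1*, *Foxa2* and *Foxa3*, the nuclear receptors *Hnf4a* and *Hnf4g*, and the homeodomain factor *Hhex*. They were taken by name, as the array probes whose gene name equals one of the 6, out of 34836 gene names in all, a rule that holds no measured value. Of 55681 probes, 7 read these genes, 2 of them *Foxa2* and 1 each of the others. RNA of 4 groups of mouse ES-derived cells was hybridized to 12 one-colour Agilent arrays, 3 for each group. All cells carried Gata6GR, a fusion of full-length mouse Gata6 with the ligand-binding domain of the human glucocorticoid receptor, expressed from the CAG promoter of a piggyBac vector, and all were kept with LIF. In *Sox7* (+/-) cells the coding region of 1 *Sox7* allele had been replaced, and in *Sox7* (-/-) cells, selected from that line with puromycin, both alleles were lost. Each genotype was measured as ES cells without dexamethasone (Dex), the steroid that brings Gata6GR into the nucleus, and as XEN-like cells, which resemble extraembryonic endoderm stem cells, at day 4 of Dex treatment. The comparisons ask how these regulators respond to Gata6 activity and whether that response differs when *Sox7* is lost. Each genotype was 1 cell line, so genotype and line cannot be told apart. No cells without Gata6GR received Dex, so the effect of the steroid itself and that of Gata6GR cannot be told apart either. For *Sox7* (+/-) ES cells the labels give the source of every array as replicate 1 although the titles run from 1 to 3, and no source used here states that replicates came from separate cultures. The p-values therefore measure the spread between these arrays, which may be technical.

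The primitive endoderm of the blastocyst gives rise to visceral endoderm, an absorptive and secretory epithelium around the embryo, and to parietal endoderm, which lays down a thick basement membrane. Foxa factors can bind their sites in closed chromatin and are needed for endoderm, liver and gut. Hnf4a, a nuclear receptor, is required in visceral endoderm and liver for genes of lipid transport and secreted serum proteins. Hhex is a mostly repressive factor of the anterior visceral endoderm, liver, thyroid and pancreas buds, and it is also found in early blood and endothelium. Gata6 and Gata4 act upstream of several of these genes, and Sox7 and Sox17 are related factors of the same lineage.

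The promoters of the genes that differed most were read to show what lies directly before their starts, because the treatment acts through a GATA factor. RefSeq windows on GRCm38.p6 were found for 5 of the 6 genes, 8 windows in all, with *Hnf4g* not among them, and the 250 bases before each start are given 5′ to 3′ on the gene's strand. Motifs were searched on both strands. The word AGATAA stood for GATA sites, as did the word AGATAG, the word TGATAA and the word TGATAG. Forkhead sites were read as the word TGTTTAC or else the word TATTTAC, the HNF4 word was CAAAGTCCA and the word used for Sox factors was AACAAT. Matches are in capitals below. A match describes letters and not binding. The first line is the upstream start of *Hnf4a*, known from pancreas, at chr2:163506607-163506856 on the plus strand. The second is the downstream start of *Hnf4a*, known from liver, at chr2:163546905-163547154 on the plus strand. Next comes the last of 3 *Foxa2* starts in the order of transcription, at chr2:148045465-148045714 on the minus strand, followed by *Hhex* at chr19:37434591-37434840 on the plus strand, and by *Foxa1* at chr12:57546112-57546361 on the minus strand.
Hnf4a, upstream start: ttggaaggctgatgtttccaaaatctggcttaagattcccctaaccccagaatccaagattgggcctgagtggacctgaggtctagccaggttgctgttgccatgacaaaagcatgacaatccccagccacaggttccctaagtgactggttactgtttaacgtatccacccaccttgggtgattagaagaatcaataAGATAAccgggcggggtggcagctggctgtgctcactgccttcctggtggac
Hnf4a, downstream start: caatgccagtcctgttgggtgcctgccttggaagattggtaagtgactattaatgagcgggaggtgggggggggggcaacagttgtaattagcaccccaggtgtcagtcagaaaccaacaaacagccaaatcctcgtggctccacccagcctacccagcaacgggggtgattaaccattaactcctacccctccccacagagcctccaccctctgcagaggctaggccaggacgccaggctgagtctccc
Foxa2, last start: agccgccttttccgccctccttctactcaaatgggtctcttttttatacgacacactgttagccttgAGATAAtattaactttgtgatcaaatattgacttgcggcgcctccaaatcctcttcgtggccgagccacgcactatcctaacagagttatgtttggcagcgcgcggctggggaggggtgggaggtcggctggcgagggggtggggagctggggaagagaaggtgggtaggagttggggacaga
Hhex: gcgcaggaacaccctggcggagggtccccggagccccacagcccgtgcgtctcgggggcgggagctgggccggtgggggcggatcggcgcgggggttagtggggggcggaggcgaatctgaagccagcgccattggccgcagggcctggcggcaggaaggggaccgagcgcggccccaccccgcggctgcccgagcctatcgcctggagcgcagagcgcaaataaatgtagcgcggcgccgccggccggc
Foxa1: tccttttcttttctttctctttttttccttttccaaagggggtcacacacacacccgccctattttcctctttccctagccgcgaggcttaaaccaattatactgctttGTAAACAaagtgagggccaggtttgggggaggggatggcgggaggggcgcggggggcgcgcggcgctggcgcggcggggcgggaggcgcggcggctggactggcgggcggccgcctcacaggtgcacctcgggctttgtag
One GATA word, AGATAA, stood from 52 to 47 bases before the upstream *Hnf4a* start, and the same word stood from 183 to 178 bases before the last *Foxa2* start. Of all 32851 windows of this length, 26.5% hold a GATA word, so such a match is common. *Foxa1* had a forkhead word from 141 to 135 bases before its start, and 5.76% of all windows hold one. None of the searched words was in these 250 bases of the downstream *Hnf4a* start, *Hhex*, *Foxa3* or the first 2 *Foxa2* starts. Neither HNF4 nor Sox words were in any of the 8 windows, which 0.384% and 9.42% of all windows hold. The array probes read the transcripts elsewhere, and for *Hnf4a* the single probe, at chr2:163398548-163398607 on mm9, does not tell which start was used.

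Levels are given as a percentage of the array's own 75th percentile of background-subtracted signal, so that 100% is the brightness at that percentile, and levels of different genes are not compared because probes differ in brightness. A difference is on the log2 scale of these levels, from 1 limma fit of the 25938 probes that some group measured well above background on each of its 3 arrays. To be called, a probe needed an adjusted p (Benjamini-Hochberg) below 0.05 together with a difference of over 2-fold. On the arrays *Sox7* itself was at 218% to 229% in the 3 *Sox7* (+/-) ES arrays and at 490% to 688% in the 3 *Sox7* (+/-) XEN-like arrays, and was not well above background on any of the 6 *Sox7* (-/-) arrays. Replicates of a group correlated with r of 0.982 to 0.996 across probes. *Sox7* (+/-) XEN-like replicate 3 stood apart, with r of 0.983 and 0.982 to its 2 partners, which had an r of 0.994 with each other. That array had a summed level of 16 pluripotency genes of 76671%, against 60026% and 62474% in its partners. As a sum of linear levels, this value weights bright genes most. In *Sox7* (+/-) cells 12 of the 16 genes were called lower and 1 higher with Dex (median log2 difference -4.95). In *Sox7* (-/-) cells 14 were lower and none higher (median -4.78). Of all tested probes 14% and 14.2% were called lower. Results that turn on the array that stood apart are given with and without it. The arrays lay on 2 slides, the first holding all *Sox7* (-/-) ES arrays plus replicate 1 of the *Sox7* (-/-) XEN-like cells and the second holding the other 8, so that the ES cells of the 2 genotypes shared no slide.

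**Figure D1:**
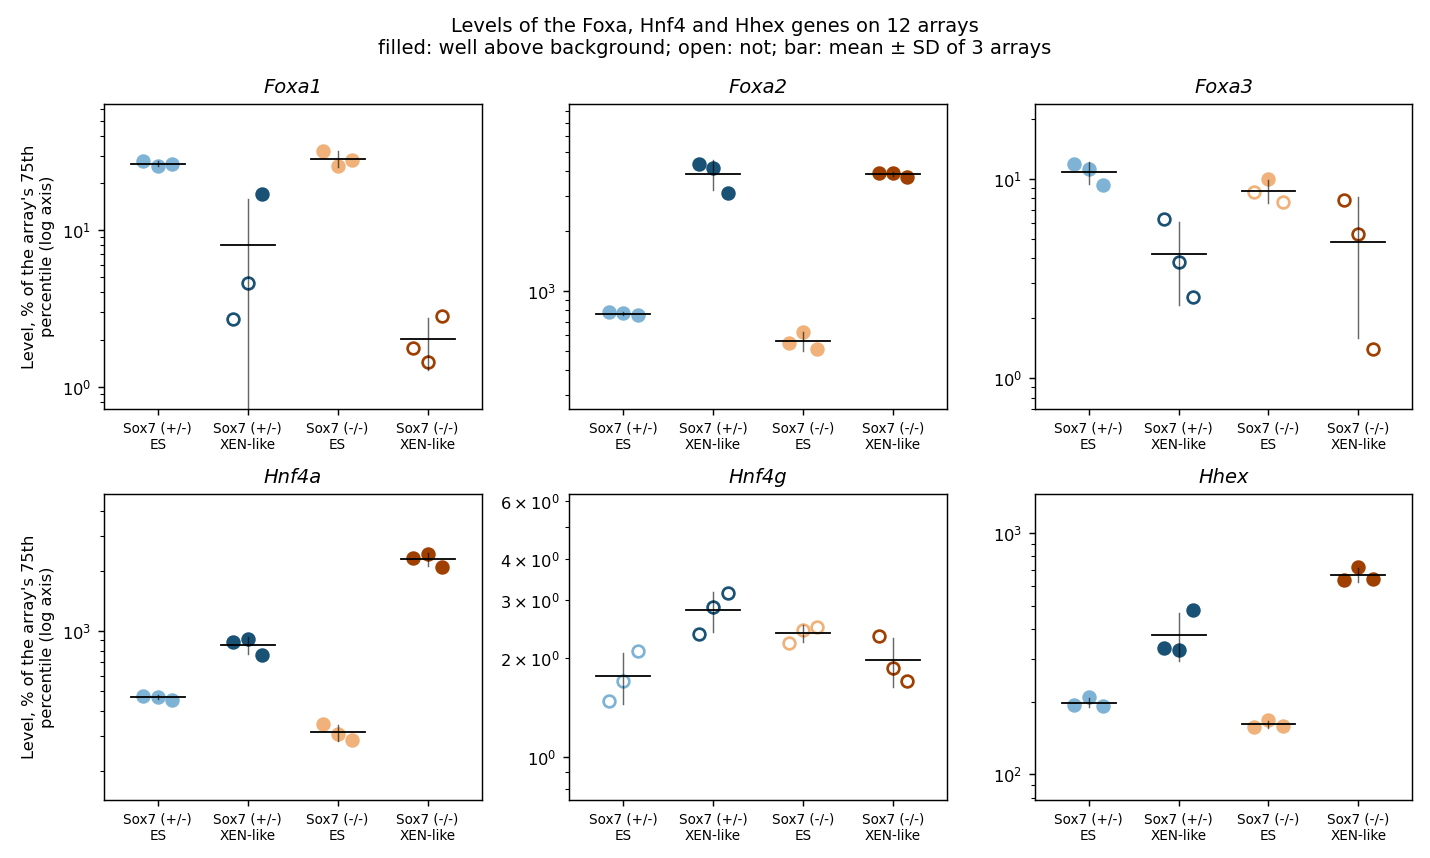
Level of each of the 6 genes on the 12 arrays, as a percentage of the array's 75th percentile on a log axis, in the 4 groups. Filled points were well above background on that array and open points were not, and bars give the mean ± SD of 3 arrays (the lower end for *Foxa1* in *Sox7* (+/-) XEN-like cells runs off the axis). *Foxa2* reached the same level in XEN-like cells of both genotypes, *Hnf4a* and *Hhex* reached their highest levels in *Sox7* (-/-) XEN-like cells, *Foxa1* was lower in XEN-like cells, *Foxa3* lay near background, and *Hnf4g* was open throughout.

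*Foxa2* rose strongly with Dex in both genotypes. Its brighter probe, at chr2:147868669-147868728 on mm9, read 781%, 771% and 756% in the 3 *Sox7* (+/-) ES arrays and 4353%, 4127% and 3113% in the 3 *Sox7* (+/-) XEN-like arrays. In *Sox7* (-/-) cells the same probe read 548%, 626% and 510% without Dex and 3903%, 3927% and 3749% with Dex. The ES and XEN-like arrays did not overlap in either genotype, and the lowest treated array was the *Sox7* (+/-) replicate that stood apart. *Foxa2* rose by a log2 difference of 2.31 (SE 0.12, limma adjusted p = 8.4e-08), or 4.97-fold, in *Sox7* (+/-) cells and by 2.79 (SE 0.12, adjusted p = 1.6e-08), or 6.90-fold, in *Sox7* (-/-) cells. The difference between these 2 responses was 0.47 (95% interval 0.09 to 0.86, adjusted p = 0.067) and was not called. In XEN-like cells the genotypes differed by 0.01 (95% interval -0.26 to 0.28, adjusted p = 0.95). For that comparison the deposited table, neither background-subtracted nor scaled between arrays, gave 0.49 (limma adjusted p = 0.024). There the median of all probes was itself shifted by 0.34. The second *Foxa2* probe, which shares 5 bases of position with the first, gave 2.38 and 2.83 for the Dex responses and 0.02 for the XEN-like comparison.

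*Hnf4a* rose with Dex far more in *Sox7* (-/-) than in *Sox7* (+/-) cells. The 3 *Sox7* (+/-) ES arrays read 476%, 471% and 455%, and the *Sox7* (+/-) XEN-like arrays read 887%, 919% and 757%. The *Sox7* (-/-) ES arrays were lower, at 343%, 307% and 286%, and the *Sox7* (-/-) XEN-like arrays were the highest of all, at 2333%, 2439% and 2111%. No 2 of the 4 groups overlapped. The group means were 467% ± 10.8, 854% ± 85.8, 312% ± 28.4 and 2294% ± 167 (SD, n = 3 each). In *Sox7* (-/-) cells *Hnf4a* rose by a log2 difference of 2.88 (SE 0.10, limma adjusted p = 2.6e-09), or 7.36-fold. In *Sox7* (+/-) cells the difference was 0.87 (SE 0.10, adjusted p = 2.5e-05), or 1.82-fold, which passed the adjusted p but not the 2-fold minimum. With spike-in scaling this value was 0.35 (adjusted p = 0.15) and with the deposited values 0.37 (adjusted p = 0.081), where the median of all probes was at -0.36 and -0.23. The sign of the *Sox7* (+/-) response was the same under all 20 settings tried.

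The difference between the genotypes in the *Hnf4a* response was 2.01 (95% interval 1.71 to 2.32, adjusted p = 5.2e-06), or 4.04-fold. XEN-like cells contributed 1.43 (SE 0.10, adjusted p = 4.8e-06) to it, with *Hnf4a* 2.69-fold higher in *Sox7* (-/-) cells. ES cells contributed the rest, with *Hnf4a* lower in *Sox7* (-/-) cells by a log2 difference of -0.59 (SE 0.10, adjusted p = 0.00095), under 2-fold. The ES contribution is tied to the slide, and with the slide as a block it was -0.63 with an adjusted p of 0.057. Within the second slide the XEN-like difference was 1.41 (adjusted p = 0.00057). Within the first slide, which held a single treated array, the Dex response of *Sox7* (-/-) cells was 2.91, a value given with no test. Over 24 alternative settings and left-out arrays the difference in response lay between 1.93 and 2.43.

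*Hhex* followed the same order of groups at a smaller scale. It read 194%, 208% and 192% in *Sox7* (+/-) ES cells, 333%, 328% and 477% in *Sox7* (+/-) XEN-like cells, 157%, 168% and 158% in *Sox7* (-/-) ES cells, and 641%, 724% and 647% in *Sox7* (-/-) XEN-like cells. The 4 groups did not overlap, with the smallest gap between the ES groups. *Hhex* rose in *Sox7* (-/-) cells by 2.06 (SE 0.13, limma adjusted p = 2.8e-07), or 4.16-fold. In *Sox7* (+/-) cells it was higher by 0.92 (SE 0.13, adjusted p = 0.00015), or 1.89-fold, under the 2-fold minimum. The difference between these responses was 1.14 (95% interval 0.73 to 1.56, adjusted p = 0.0016), or 2.21-fold, and was called. In XEN-like cells *Hhex* was higher in *Sox7* (-/-) cells by 0.84 (95% interval 0.55 to 1.14, adjusted p = 0.0011), or 1.79-fold, which also missed the 2-fold minimum.

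The array that stood apart, *Sox7* (+/-) XEN-like replicate 3, had the highest *Hhex* of its group. Without it the XEN-like difference in *Hhex* was 1.02 (adjusted p = 1.1e-05) and was called, and without replicate 2 of the same group the *Sox7* (+/-) Dex response was 1.01 (adjusted p = 0.00021) and was called. Within the second slide the XEN-like difference was 0.87 (adjusted p = 0.016). *Hhex* in ES cells differed by -0.30 between genotypes (95% interval -0.59 to -0.01, adjusted p = 0.089) and was not called.

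*Foxa1* fell with Dex, in the opposite direction to *Foxa2*. It was well above background on all 6 ES arrays, at 27.7%, 25.9% and 26.7% in *Sox7* (+/-) cells and 32.3%, 26.0% and 28.0% in *Sox7* (-/-) cells. Of the XEN-like arrays only *Sox7* (+/-) replicate 3 was well above background, at 17.0%, while its partners read 2.69% and 4.58% and the *Sox7* (-/-) arrays 1.77%, 1.43% and 2.83%. This array was also the one with the highest summed pluripotency level of its group, and whether the 2 are linked was not tested. *Foxa1* fell in *Sox7* (+/-) cells by a log2 difference of -2.17 (SE 0.54, limma adjusted p = 0.0054), with 1 of 3 treated arrays well above background. Without that array the treated side was background alone, and the fall was at least 2.59-fold (fitted log2 difference -2.93, adjusted p = 1.8e-05). In *Sox7* (-/-) cells no treated array measured it, and the fall was at least 3.78-fold (fitted log2 difference -3.89, adjusted p = 9.7e-05). In XEN-like cells the fitted *Foxa1* difference was -1.62 (adjusted p = 0.041) and met the rule for a call. With 5 of these 6 arrays not well above background and the groups overlapping, its size rests on background signal and on the array that stood apart. The call was lost without *Sox7* (+/-) XEN-like replicate 2 or 3 or *Sox7* (-/-) XEN-like replicate 1 or 2, at -0.86 without the array that stood apart, and with the slide as a block the adjusted p was 0.1. With normexp background correction the *Sox7* (+/-) response was -0.62, under 2-fold.

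*Foxa3*, the other forkhead gene of the family, known mainly from liver and gut, lay near background throughout. It read 11.96%, 11.3% and 9.30% in *Sox7* (+/-) ES cells, the one group in which all 3 arrays were well above background. The *Sox7* (-/-) ES arrays averaged 8.75% ± 1.17 (SD, n = 3), with 1 of 3 well above background, and the 6 XEN-like arrays, at 1.40% to 7.86%, were not well above background. The *Sox7* (+/-) Dex response was called lower at -1.45 (SE 0.54, limma adjusted p = 0.039), but it lost the call when any of the 3 *Sox7* (+/-) ES arrays or replicate 2 or 3 of the *Sox7* (+/-) XEN-like arrays was left out, with adjusted p of 0.064 to 0.13, and under normexp it was -0.20. No bound on the fold above 1 could be given. *Foxa3* was not called in any other comparison. *Hnf4g*, which shares the DNA-binding specificity of Hnf4a and is known from gut and kidney, was not well above background on any of the 12 arrays, at 1.49% to 3.15%, and was not tested.

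**Figure D2:**
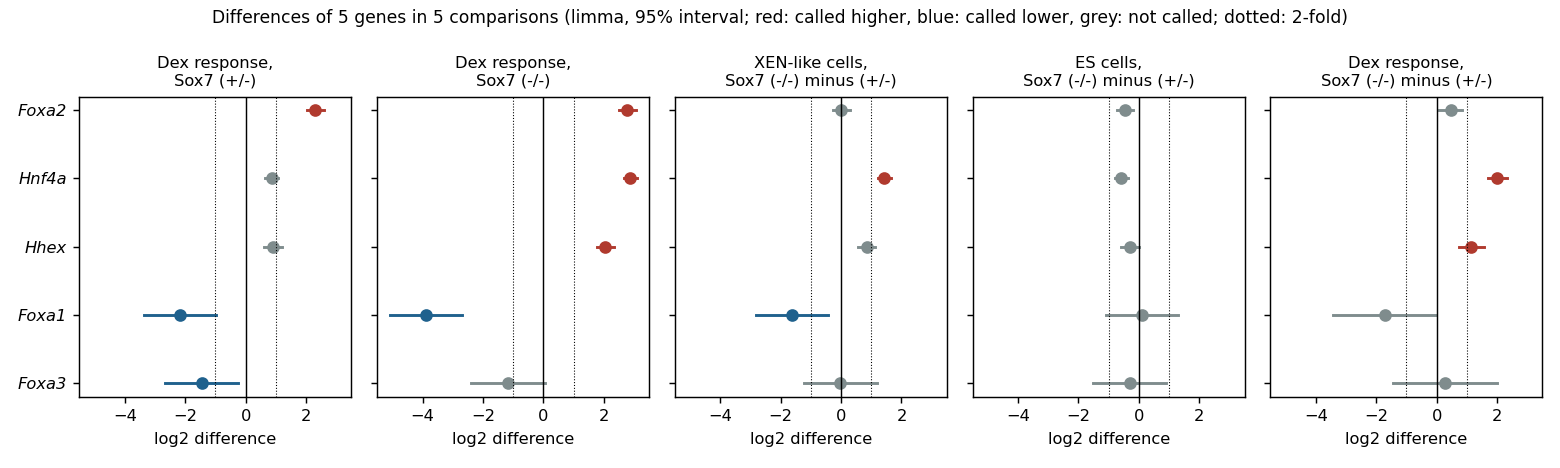
Log2 difference of 5 genes (rows) in the 5 comparisons (panels), with 95% intervals from limma over 12 arrays. Red points were called higher, blue points called lower and grey points not called, and dotted lines mark 2-fold. *Hnf4a* and *Hhex* are red for the difference in response between genotypes, at 2.01 and 1.14, *Foxa2* lies at 0.01 in XEN-like cells, and the intervals of *Foxa1* and *Foxa3* are wide.

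Counted over the 5 tested genes, 3 were called for Dex in *Sox7* (+/-) cells, where 24.9% of all tested probes were called. These were 1 higher and 2 lower, against 11% and 14% of all probes. For Dex in *Sox7* (-/-) cells 4 were called, against 28.8% of all probes, with 3 higher and 1 lower, against 14.6% and 14.2%. In XEN-like cells 2 were called, against 7.5% of all probes, *Hnf4a* higher and *Foxa1*, near background, lower in *Sox7* (-/-) cells, where 3.86% were higher and 3.64% lower. For the difference in response 2 were called, both higher, against 9.79% of all probes, of which 6.62% were higher and 3.17% lower. In ES cells none was called, against 8.62% of all probes, 1.95% higher and 6.67% lower, while *Hnf4a*, *Foxa2* and *Hhex*, 3 of the 5, had an unadjusted limma p under 0.05 with differences under 2-fold. With 5 genes, each count moves by a large share when 1 gene changes sides. The groups did not overlap for 5 of the 5 genes for Dex in *Sox7* (+/-) cells and 4 in *Sox7* (-/-) cells, which held for 67.7% and 73.6% of all tested probes, so that separation alone is common here. They did not overlap for 2 of the 5 in XEN-like cells, 3 in ES cells and 3 for the difference in response, against 46.3%, 65.3% and 32.3% of all probes.

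In ES cells without Dex the differences of the 3 brighter genes were -0.59 for *Hnf4a*, -0.46 for *Foxa2* (adjusted p = 0.012) and -0.30 for *Hhex* (adjusted p = 0.089), and none was called. With the slide as a block the adjusted p of *Foxa2* was 0.21. Marker levels differed between these groups in both directions. Of 13 tested visceral endoderm genes 5 were called lower in *Sox7* (-/-) ES cells and none higher (median -0.42), while the summed level of the 16 listed was 60600% to 65044% in *Sox7* (+/-) and 65845% to 72339% in *Sox7* (-/-) ES cells. The summed level of 13 parietal endoderm genes was 159688% to 165208% in *Sox7* (+/-) ES cells and 126589% to 135261% in *Sox7* (-/-) ES cells, and that of 16 pluripotency genes was 92937% to 94773% and 133018% to 145381%. *Ttr*, which encodes the thyroid hormone carrier transthyretin and is a known target of Hnf4a and Foxa2, was at 33.9% ± 3.78 (SD, n = 3) in *Sox7* (+/-) ES cells and was not well above background on any *Sox7* (-/-) ES array. The part of these markers and of the slide in the ES differences was not tested.

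**Figure D3:**
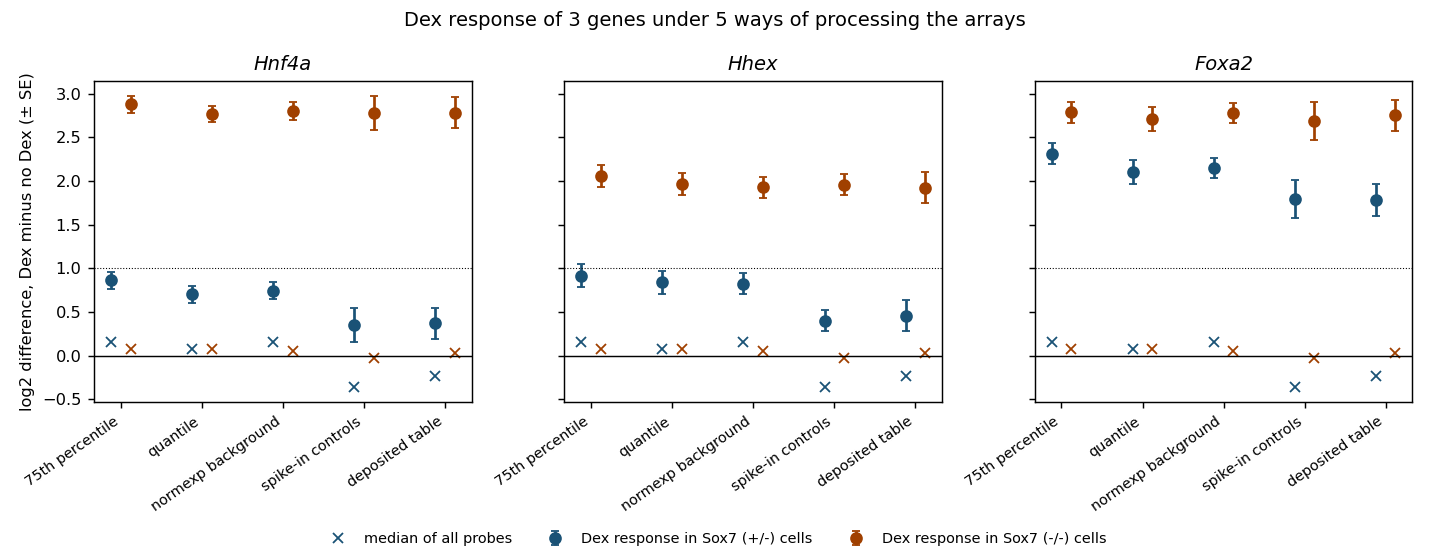
Dex response of *Hnf4a*, *Hhex* and *Foxa2* (log2 difference ± SE, 3 arrays per group) under 5 ways of processing the arrays, in *Sox7* (+/-) cells (blue) and *Sox7* (-/-) cells (brown), with crosses at the median of all tested probes and a dotted line at 2-fold. The *Sox7* (-/-) responses hold between 2.76 and 2.88 for *Hnf4a*, while the *Sox7* (+/-) responses and the crosses drop together when spike-in controls or the deposited table are used.

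Other transcription factors of the liver-type network moved in both directions with Dex. Of the 18 given here, 13 were tested, and 3 rose and 2 fell with Dex in *Sox7* (+/-) cells (median log2 difference 0.27, against 0.16 for all probes) and 4 rose and 2 fell in *Sox7* (-/-) cells (median 0.37, against 0.07). Gata4 and Sox17, partners of Gata6 in primitive endoderm, rose in both genotypes, *Gata4* by 1.54 and 1.74 and *Sox17* by 2.46 and 2.41. *Gata6* differed by 0.27 and 0.37, not called, and whether its probe also reads the Gata6GR transgene is not known. *Nr5a2*, a nuclear receptor expressed in pluripotent cells and liver, fell by -4.43 and -4.68. None of the 13 was called in ES cells by limma (median -0.06, against 0.10), and at an unadjusted limma p under 0.05 there were 3 of the 13. These counts do not cover the whole network, and its counts for the genotypes in XEN-like cells and for the difference in response are not reported. *Onecut1*, another liver factor, rose in *Sox7* (-/-) cells by 1.53 (adjusted p = 0.0095) and was at 0.86 (adjusted p = 0.1) in *Sox7* (+/-) cells, and the 2 responses were not called different (adjusted p = 0.45). Without *Sox7* (+/-) XEN-like replicate 3 the *Sox7* (+/-) response was 1.5004 (adjusted p = 4.1e-05) and was called.

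Genes with known sites for Hnf4a, Foxa or other liver-type factors, mostly those of serum proteins and lipoproteins made by liver and visceral endoderm, were read as a list of 30, of which 29 were on the array and 16 were tested. With Dex, 5 rose and 3 fell in *Sox7* (+/-) cells (median -0.10) and 10 rose and 2 fell in *Sox7* (-/-) cells (median 2.93). In XEN-like cells 8 were called higher and 1 lower in *Sox7* (-/-) cells (median 1.35). In ES cells 1 was called higher and 6 lower (median -0.68). For the difference in response 10 were called higher and 1 lower (median 2.34). The medians over all tested probes for these comparisons were 0.16, 0.07, 0.00, 0.10 and -0.09. The list was read through the 16 genes bright enough in at least 1 group, so a gene high in only 1 group had to differ, and its counts are a description.

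The lipoprotein genes of the list differed widely between the groups. *Apom*, a carrier of sphingosine 1-phosphate on lipoproteins, was at 208% ± 15.0, 33.4% ± 7.37, 41.5% ± 6.92 and 535% ± 36.6 in *Sox7* (+/-) ES, *Sox7* (+/-) XEN-like, *Sox7* (-/-) ES and *Sox7* (-/-) XEN-like cells (SD, n = 3 each). With Dex it fell by -2.65 in *Sox7* (+/-) cells and rose by 3.70 in *Sox7* (-/-) cells, a difference of 6.35 (SE 0.23, adjusted p = 1.4e-07). *Mttp*, which loads lipid onto apolipoprotein B, was at 205% ± 7.48, 219% ± 15.1, 42.8% ± 5.21 and 945% ± 62.2, and differed in response by 4.38 (SE 0.14, adjusted p = 7.8e-08). *Apoc2*, the activator of lipoprotein lipase, differed by 3.63 (adjusted p = 1.4e-06). *Apob* itself was well above background on the 3 *Sox7* (+/-) ES arrays and on none of the other 9.

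*Ttr* rose in both genotypes, by 2.54 (adjusted p = 0.00017) in *Sox7* (+/-) cells and at least 66.9-fold in *Sox7* (-/-) cells, where ES cells were at background, and it reached 205% ± 68.5 and 610% ± 46.7 (SD, n = 3) in XEN-like cells. *F2*, the gene of prothrombin, rose by 1.30 and 4.27. *Pck1* and *Igfbp1*, which glucocorticoids are also known to induce, were well above background on all 3 *Sox7* (-/-) XEN-like arrays and on no *Sox7* (+/-) XEN-like array. Some members went the other way. *Ahsg*, the gene of fetuin-A, fell more in *Sox7* (-/-) cells, with a difference in response of -1.73 (adjusted p = 1.4e-05), and *Trf*, the gene of transferrin, fell in both, by -3.05 and -3.19. *Afp*, *Alb* and *Apoa1*, the classic serum protein genes of visceral endoderm and fetal liver, were not well above background on any array.

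**Figure D4:**
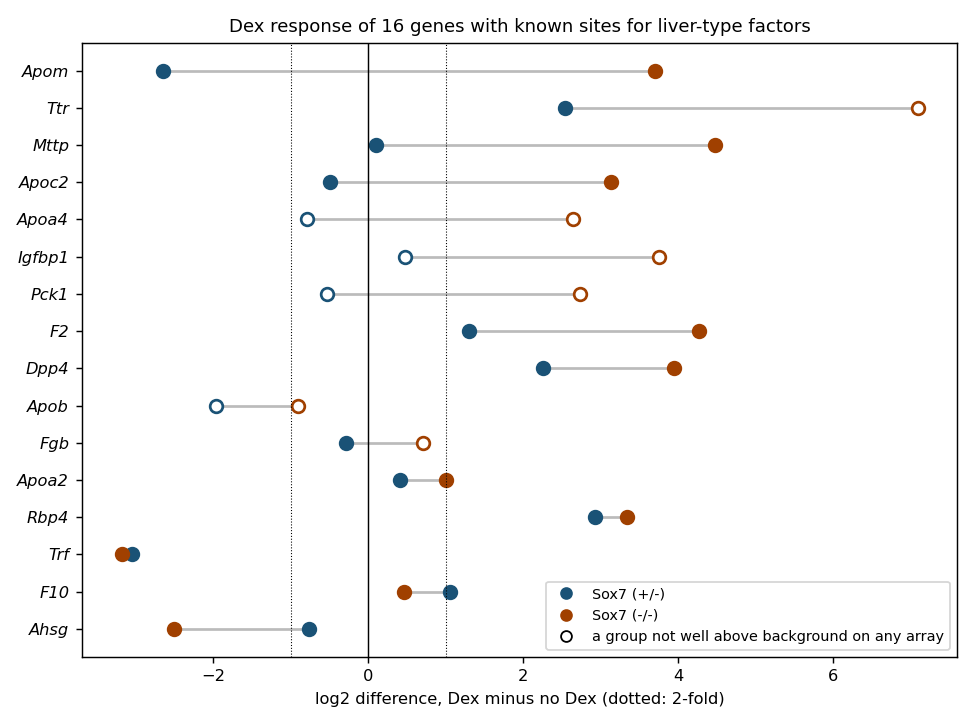
Dex response (log2 difference, Dex minus no Dex) of the 16 tested genes with known sites for liver-type factors in *Sox7* (+/-) cells (blue) and *Sox7* (-/-) cells (brown), ordered by the difference between them, with dotted lines at 2-fold. Open points have a group that was not well above background on any array, so their values depend on background. *Apom*, *Ttr*, *Mttp* and *Apoc2* lie at the top, and *Ahsg* lies at the bottom with the larger fall in *Sox7* (-/-) cells.

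The cell types that the XEN-like label could hold were read beside these results. In XEN-like cells 8 of 13 tested visceral endoderm genes were called higher in *Sox7* (-/-) cells and none lower (median 1.25). Of all tested probes 3.86% were called higher and 3.64% lower (median 0.00). The 8 include *Amn* by 3.19, *Cubn* by 2.56 and *Dab2* by 1.07, which belong to the endocytic machinery of this epithelium. Of the 13 differences 12 were positive and 1 negative. *Lrp2*, another endocytic gene of the list, was not called, and lay between -0.74 and -0.12 when single arrays were left out. With Dex, 4 of the 13 rose and 6 fell in *Sox7* (+/-) cells (median -0.61). In *Sox7* (-/-) cells 7 rose and 3 fell (median 1.53). With single arrays left out, the *Sox7* (+/-) response was -2.203 to -2.009 for *Amn* and -2.213 to -1.612 for *Cubn*. In *Sox7* (-/-) cells *Amn* rose by 1.475 to 1.599 and *Cubn* by 1.7004 to 1.9818. *Dab2* was higher with Dex in both genotypes, by 0.86 to 0.94 and by 2.49 to 2.61. The list shares 3 genes with the one above, *Afp*, *Apoa1* and *Ttr*. The summed level of the 16 listed was 43967% to 52311% in *Sox7* (+/-) and 75204% to 82980% in *Sox7* (-/-) XEN-like cells. Of the anterior visceral endoderm list, in which *Hhex* is itself a known marker gene, 4 of 10 tested were higher and none lower (median 0.35), namely *Sfrp5* by 2.44, *Cfc1* by 2.12, *Lefty1* by 1.52 and *Dkk1* by 1.10, with *Cer1*, a defining gene, not well above background on any array. Of the 10 differences 5 were positive and 5 negative, and 5 of the 10 genes were well above background on all 3 arrays of an XEN-like group. With Dex, 2 of the 10 rose and 7 fell in *Sox7* (+/-) cells (median -1.52), and 3 rose and 6 fell in *Sox7* (-/-) cells (median -2.50). *Lefty1* fell in both genotypes, by -7.95 to -7.50 and by -6.24 to -5.68 when single arrays were left out. The summed level of the 12 listed anterior visceral endoderm genes was 3438% to 3705% in *Sox7* (+/-) and 13568% to 14560% in *Sox7* (-/-) XEN-like cells. The part of these markers in the *Hnf4a* and *Hhex* differences was not tested, and in these pooled cells more cells of a type and more RNA per cell cannot be told apart.

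Of 13 parietal endoderm genes, all tested, none was higher and 1 lower in *Sox7* (-/-) XEN-like cells, *Vim* by -1.16 (median of the list -0.29), with summed levels of 401755% to 441139% and 345128% to 363231%. Of 16 pluripotency genes 2 were higher, *Esrrb* by 4.63 and *Zfp42* by 1.11, and 1 was lower, *Klf2* by -1.40 (median 0.05), with summed levels of 60026% to 76671% and 64183% to 68795%. Of 7 tested definitive endoderm and mesendoderm genes 1 was higher, *Eomes* by 1.89 (median -0.06), with summed levels of 269% to 438% and 328% to 361% over the 12 listed. Of 9 tested endothelium and blood progenitor genes 2 were higher and 3 lower (median -0.30), with *Gata2* at -1.52, and the summed levels of the 12 listed were 2221% to 3173% and 1736% to 1802%. These 5 calls did not hold, with 2 to 4 when single arrays were left out and 1 with the deposited table.

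The genes whose levels were most like those of each member were ranked by Pearson's r over the 12 arrays among all tested probes, a description in which the 4 groups set most of the likeness. For *Hnf4a* they were *Pparg* (r = 0.995), *Dnajc22* (r = 0.992) and *Dab2* (r = 0.991). For *Hhex* they were *Gmds* (r = 0.997), *Haus7* (r = 0.996) and *Igf2os* (r = 0.993). For *Foxa2* they were *Zkscan1*, *Lrpap1* and *Gpr146*, each with r = 0.998. For *Foxa1*, a dim gene, they were unnamed intergenic transcripts with r = 0.992 and 0.981, and *Ccdc82* (r = 0.980). For *Foxa3*, also dim, the likeness was lower, with an unnamed intergenic transcript (r = 0.902), *Grin2c* (r = 0.879) and *Nup188* (r = 0.849).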

How the data were processed

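RNA of the 4 groups had been labelled with Cy3 by the authors and read on Agilent mouse arrays, 3 per group, and the deposited intensity values come from Agilent Feature Extraction 10.7.3.1, which subtracts background and detrends each array on its own, with no scaling across arrays. A deposited table of linear intensity values for the series lay within 0.498% of the mean spot signal of each array, before background subtraction, and served as an alternative. Probe positions are on mm9 as the files give them, and an annotation on mm9 was not used here. Promoter windows are RefSeq's on GRCm38.p6.

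Each array's processed signals were put on the log2 scale minus their 75th percentile (252 to 416 intensity units). Control spots and 139 to 190 outlier spots per array were left out, and spots of a probe were averaged. The spots well above background made up 41.7% to 52.3% of an array, and 0 were saturated. Precision is limited by having 3 arrays per group. Group means were fitted over all 12 arrays with limma 3.58.1 (R 4.3.3, prior degrees of freedom 1.987), and p-values were adjusted over all tested probes. A gene was read by its brightest probe. Where a group was not well above background on all its arrays, a fold is a bound, the brighter mean over the lowest signal called well above background. The procedure was tested on simulated data.

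The genes named are the 6 members, the 3 genes most like each, and, from each list and comparison, up to 4 called genes with the largest rise and up to 2 with the largest fall, plus a fixed set of markers. *Pck1* and *Alb* were named from the lists after their values were seen. Some genes of the liver-type network list are not reported here, and its counts leave them out. The members and lists were chosen with earlier results of these data known. The alternatives were normexp background correction (offset 50), quantile normalization, scaling by 8 spike-in probes, the deposited table, dropping the background filter or asking it of all 12 arrays, a single probe for each gene name, an intensity trend, only the groups compared, a replicate block, the slide as a block or within a slide, no minimum fold, the other probe, leaving out each array in turn and, added after seeing the data, keeping outlier spots.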

Additional observations from a re-analysis of the deposited data

Results flagged for a closer look

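The genotypes differed in the Dex response for *Hnf4a* by 2.01 and for *Hhex* by 1.14 (log2, *Sox7* (-/-) minus *Sox7* (+/-), tested as the interaction in limma), and both were called. Of the genes with known sites for liver-type factors it called *Apom* at 6.35, *Ttr* at 4.55, *Mttp* at 4.38, *Apoc2* at 3.63, *Apoa4* at 3.43, *Igfbp1* at 3.28, *Pck1* at 3.26, *F2* at 2.98, *Dpp4* at 1.70 and *Apob* at 1.06, all with the more positive response in *Sox7* (-/-) cells, and *Ahsg* at -1.73. The *Apob* call was lost without *Sox7* (+/-) ES replicate 1 (0.87), *Sox7* (+/-) XEN-like replicate 2 (0.98) or *Sox7* (-/-) ES replicate 2 (0.94). With single arrays left out, the genotypes differed in *Apob* by -0.07 to 0.10 in XEN-like and -1.18 to -0.86 in ES cells. For *Dpp4* these values were 0.61 to 0.74 and -1.05 to -0.97. They were 2.06 to 2.16 and -2.35 to -2.17 for *Mttp*, and 3.87 to 4.19 and -2.47 to -2.26 for *Apom*. For *F2* they were 2.49 to 2.62 and -0.46 to -0.36. The ES part of such a difference is tied to the slide. The values of *Apoa4*, *Igfbp1*, *Pck1*, *Apob* and *Ttr* rest on a group that was not well above background.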

How the results depend on the processing

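Of 506 values of the 5 tested genes under an alternative, 476 kept their side of the thresholds, 18 lost a call and 12 gained one, and no called difference changed sign. Of the differences not called, 11 values changed sign, for *Foxa2* and *Foxa3* in XEN-like cells, *Foxa1* in ES cells and the *Foxa3* difference in response. The dim genes *Foxa1* and *Foxa3* are limited by their signal over background. Another limit is the slide, which in ES cells cannot be separated from genotype except through the XEN-like arrays. The cause of each change was not tested, apart from the filters and folds, which change what is tested or called by construction.

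Counts are given in the order in which the text gives them. Normexp background correction called 1 member in place of 3 for Dex in *Sox7* (+/-) cells and 1 in place of 2 in XEN-like cells. It called 3 network genes in place of 6 for Dex in *Sox7* (-/-) cells, 3 genes with known sites in place of 7 in ES cells, and 2 endothelium genes in place of 5. It turned *Etv2* in XEN-like cells from a call as higher to a log2 difference of -0.035. The filter on all 12 arrays called 1 member for Dex in *Sox7* (+/-) cells and 1 in XEN-like cells, 1 endothelium gene, and of the genes with known sites 5 and 6 for the Dex responses in *Sox7* (+/-) and *Sox7* (-/-) cells, 4 in XEN-like cells, 2 in ES cells and 5 for the difference in response. With no filter there was 1 member called in XEN-like cells, 13 genes with known sites for Dex in *Sox7* (+/-) cells in place of 8, and 1 network gene in ES cells in place of 0. With no minimum fold, 5 members were called for Dex in *Sox7* (+/-) cells and 2 in ES cells, the network had 9, 11 and 1 genes for the 2 Dex responses and ES cells, and XEN-like cells had 8 parietal endoderm, 10 pluripotency and 2 definitive endoderm genes. The deposited table called 3 network genes for Dex in each genotype, 4 genes with known sites in ES cells, and 0 parietal and 1 endothelium gene in XEN-like cells. Spike-in scaling called 0 parietal, 5 pluripotency and 3 endothelium genes. The slide as a block called 1 member and 2 endothelium genes in XEN-like cells and 3 network genes for Dex in *Sox7* (-/-) cells. Within the second slide there was 1 member, 0 parietal and 2 endothelium genes, and with only the groups compared 1 member, 0 parietal and 3 endothelium genes.

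When single arrays were left out, 1 to 2 members were called in XEN-like cells, 2 to 3 for Dex in *Sox7* (+/-) cells, 4 to 5 in *Sox7* (-/-) cells, 0 to 0 in ES cells and 2 to 3 for the difference. The network had 0 to 1 genes in ES cells, and XEN-like cells had 0 to 1 parietal, 1 to 3 definitive endoderm, 3 to 6 pluripotency and 2 to 4 endothelium genes.

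Same-numbered arrays of different groups had correlations of their deviations between -0.05 and 0.13, and in 25 of 36 cases an array correlated best with its own number in another group, a hint from the data and not from the design. The arrays were taken to share a number only. With the replicate block 5 members were called for Dex in *Sox7* (-/-) cells, *Foxa3* being added at -1.17 (adjusted p = 0.032), and 3, 2, 0 and 2 for the other comparisons, with no other call changed.

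Over all probes, 6470, 7474, 1945, 2235 and 2539 were called for Dex in *Sox7* (+/-) and *Sox7* (-/-) cells, for the XEN-like and ES comparisons and for the difference. Normexp gave 3458, 4625, 708, 901 and 1388, the filter on all arrays 3171, 4117, 927, 854 and 1257, and no minimum fold 16277, 16938, 8940, 11702 and 7070. With the deposited table the XEN-like comparison had 1295 calls and that of ES cells 1033. No filter gave 5413 for the difference.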
